A study of Mus musculus with 4 samples.

Results

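Ifi27l2a-high microglia were 296 of the 8018 cells that passed the cell filters in single-cell RNA sequencing of CD11b-selected cells from the mouse brain. Their high Ifi27l2a is the rule that chose them and not a finding. A member cell held at least 500 genes and 1000 UMIs (unique molecular identifiers, each standing for 1 captured transcript) with at most 10% of UMIs from mitochondrial genes. It had UMIs of at least 2 of the 4 microglia genes Sall1, Siglech, P2ry12 and Tmem119, and at least 10 Ifi27l2a UMIs per 10000. Cells were left out when Cst7 and Lpl together reached 10 per 10000, when Cd5l was detected, or when Lyz2 reached 100 per 10000. Cells with 4 or more of the 6 genes Ifit1, Ifit2, Ifit3, Rsad2, Cxcl10 and Isg15, or with 3 or more of the 6 cycle genes Mki67, Top2a, Birc5, Cdk1, Cenpf and Ube2c, were left out as well.

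The 4 libraries came from 1 mouse each, aged 8 to 12 weeks: wild type for IL-6 (WT, +/+) or labelled as its knockout (KO, -/-), after sham surgery or 6 days after cerebrovascular injury (CVI). The injury was made with pulsed ultrasound and intravenous microspheres over a thinned skull, and tissue was taken with a 4 mm punch. One label places the controls 6 days after sham surgery and the extraction protocol calls them uninjured. The protocol lists a mild and a severe grade of injury, and which one these mice received is not stated. If present as labelled, a germline deletion would reach every cell type. With 1 mouse per group no difference between conditions could be tested, and all intervals here are 95% intervals for counting error only.

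Interferons bind receptors on the cell surface, and JAK kinases then activate transcription factors that bind short DNA elements rich in GAAA at the start of interferon-stimulated genes. Ifi27l2a is one of these genes and encodes a small hydrophobic membrane protein. The Ifit genes, which encode RNA-binding antiviral proteins, belong to the same response. Microglia are the resident macrophages of the brain parenchyma and are known to carry interferon-stimulated genes after injury, during ageing and in infection.

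The libraries held 992 (WT sham), 2996 (WT injured), 1392 (KO-labelled sham) and 2638 (KO-labelled injured) cells past the filters, with medians of 7801 to 10264.5 UMIs per cell. Il6, the targeted gene, went against a simple loss of its transcript. In CPM (UMIs of a gene divided by all UMIs of the cells and scaled to 1000000), its level was 10.5 in WT sham and 4.47 in WT injured cells, against 26.4 and 21.9 in the KO-labelled sham and injured cells. No label names the deleted exon, so 3′ reads may lie outside it and do not check the genotype. For this reason these libraries are called KO-labelled. The 2 sham libraries shared 23 cell barcodes, other pairs shared 1 or 2, and no member barcode was shared between libraries.

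Nearly all members came from injured brain: there was 1 in WT sham, 150 in WT injured, 3 in KO-labelled sham and 142 in KO-labelled injured, so that 292 of 296 (98.6%) were from the injured libraries. As a share of all cells this was 0.101% (exact Clopper-Pearson interval 0.00255 to 0.560%) in WT sham and 5.01% (4.25 to 5.85%) in WT injured. It was 0.216% (0.0445 to 0.629%) in KO-labelled sham and 5.38% (4.55 to 6.31%) in KO-labelled injured cells. The shares in the injured libraries had overlapping intervals, and each lay above both sham shares. Among cells with the microglia genes, members were 6.71% (5.71 to 7.83%) in the WT injured and 6.35% (5.38 to 7.44%) in the KO-labelled injured library. CD11b selection and the punch set the denominators, and the share is a description since Ifi27l2a chose the cells.

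Microglia that met every condition except the one on Ifi27l2a numbered 756, 1164, 1177 and 1599 in WT sham, WT injured, KO-labelled sham and KO-labelled injured. Members were 12.9% (11.0 to 14.9%) of them in WT injured and 8.88% (7.53 to 10.4%) in KO-labelled injured. The intervals on this denominator do not overlap, in contrast to the share of all cells, and other conditions of the rule removed different numbers of cells in the injured libraries. Of 312 Ifi27l2a-high cells with microglia genes in WT injured, 98 failed on Cst7 and Lpl, 42 on Cd5l and 57 on the Ifit genes. Of 260 in KO-labelled injured, 57 failed on Cst7 and Lpl, 4 on Cd5l and 69 on the Ifit genes.

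**Figure D1:**
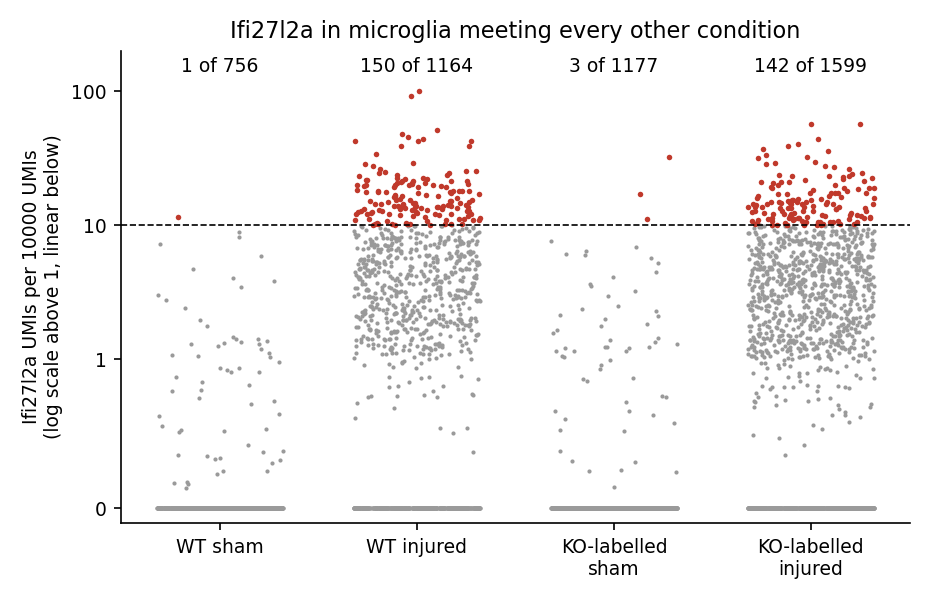
Ifi27l2a UMIs per 10000 UMIs (y axis, log scale above 1) in each microglial cell that met every other condition, by library (x axis). Red points are members, grey points lie under the threshold of 10 (dashed line), and the text over each column gives members of cells shown: injured microglia form 1 continuous spread across the threshold, while sham microglia sit mostly at 0.

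The members are the upper end of a continuous range and not a separate group. Ifi27l2a lies on chromosome 12 from 103442167 to 103443680 (minus strand, GRCm38, GENCODE), as a protein-coding gene between its relatives Ifi27 and Ifi27l2b. Among members it ran from 10.1 to 99.6 UMIs per 10000 with a median of 15.2 in WT injured, and from 10.0 to 56.9 with a median of 14.4 in KO-labelled injured. The single WT sham member had 11.5, and the 3 KO-labelled sham members had a median of 17.1. Just inside the threshold (10 to 12 per 10000) lay 28 and 43 cells, and just outside it (8 to 10) lay 49 and 69 cells, in WT injured and KO-labelled injured.

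Ifi27l2a was also raised in the injured microglia under the threshold, called Ifi27l2a-low here and chosen by the same rule apart from that gene. These 1014 and 1457 cells had 261 CPM (250 to 272) and 251 CPM (242 to 260) in WT injured and KO-labelled injured. The matching 755 and 1174 sham cells had 13.7 CPM (11.4 to 16.4) and 10.8 CPM (9.04 to 12.9). Ratios of injured to sham were 19.0 (15.8 to 22.99) for WT and 23.1 (19.4 to 27.8) for the KO label. In the sham libraries 91.5% and 94.9% of Ifi27l2a-low microglia had no Ifi27l2a UMI, against 41.1% and 40.9% in the injured ones. The endothelial cells of the injured libraries, with medians of 4546 and 4311.5 UMIs, had an Ifi27l2a UMI in 26.3% and 13.9% of cells, below the 58.9% and 59.1% of Ifi27l2a-low microglia at medians of 7312 and 8180 UMIs. After thinning every cell to 3000 UMIs, which left out 20 and 25 endothelial and 61 and 106 microglial cells, the shares were 17.9% and 11.3% against 41.9% and 40.2%.

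Members had medians of 8884.5 and 8866 UMIs in WT injured and KO-labelled injured, above the 7312 and 8180 of Ifi27l2a-low cells. In 2 WT injured and 8 KO-labelled injured members the threshold was met with at most 3 Ifi27l2a UMIs, which counting noise alone could move across it.

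Lag3, Ccl9 and Ly86, which were given as markers beside Ifi27l2a, did not set the members apart from Ifi27l2a-low microglia of the same library. Lag3, an inhibitory receptor, was at 206 CPM (183 to 232) in members and 200 CPM (190 to 210) in Ifi27l2a-low cells of WT injured. In KO-labelled injured it was at 291 (261 to 322) and 309 (300 to 319) CPM. The ratios were 1.03 (0.905 to 1.17) and 0.940 (0.842 to 1.05), and both intervals contain no difference.

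Ccl9, a chemokine, was at 275 against 215 CPM in WT injured and 383 against 343 CPM in KO-labelled injured, ratios of 1.28 (1.14 to 1.43) and 1.12 (1.02 to 1.23). Ly86, the partner of the Toll-like receptor relative RP105, was at 2753 against 2184 and 2688 against 2371 CPM, ratios of 1.26 (1.22 to 1.31) and 1.13 (1.09 to 1.17). These differences were under the 1.5-fold used for calls. Against sham Ifi27l2a-low microglia, members had higher Ly86 by 2.01-fold (1.93 to 2.08) in WT and 1.79-fold (1.73 to 1.86) in the KO label, and higher Ccl9 by 2.60-fold (2.30 to 2.94) and 2.73-fold (2.46 to 3.02). The Ifi27l2a-low cells of the same injured libraries were higher than sham as well, by 1.59 and 1.58-fold for Ly86 and by 2.03 and 2.44-fold for Ccl9. The cells are therefore described here by their Ifi27l2a level.

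Genes outside the rule were compared between members and Ifi27l2a-low microglia within each injured library, as ratios of summed UMIs. A gene was called at 1.5-fold, on a log2 scale with 10 CPM added on both sides, when 1 class reached 20 CPM and both together held 100 UMIs. The classes were cut from the same counts, so these are descriptions without a test, and agreement of both libraries is given in its place. In both libraries 45 of 5270 genes (0.854%) were higher in members and 11 (0.209%) were lower. In WT injured alone 60 of 5434 genes (1.1%) were higher and 88 (1.62%) lower, and in KO-labelled injured 73 of 5570 (1.31%) higher and 134 (2.41%) lower. No gene was called in opposite directions. Higher genes were 80.4% of those called in both libraries, but 48.8% (42 higher and 44 lower) with each cell weighted equally and 51.6% (32 and 30) without the top cell of each gene. In KO-labelled injured alone they were 35.3%, against 46.0% (86 and 101) with median-of-ratios scaling and 23.8% (88 and 282) with cells weighted equally.

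Interferon-stimulated genes made up the largest group among the genes higher in members. Of the 45 genes, 21 (46.7%) were on the interferon response list, 4 on the list of MHC class I and peptide loading, and 13 on no list. The median log2 ratio of the 35 interferon genes measured in both libraries was 0.77 in WT injured and 0.79 in KO-labelled injured, against -0.03 and -0.04 for all genes tested. None of the 35 was called lower, and 33 lay above 0 in both libraries. Irf1 lay at -0.39 and 0.12 and Slfn8 at -0.04 and 0.09, so these were the members of the list without the common sign.

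Irf7, the transcription factor that amplifies type I interferon production, was at 182 CPM (160 to 207) in WT injured members and 41.1 CPM (36.8 to 45.8) in Ifi27l2a-low cells, a ratio of 4.44 (3.75 to 5.25). In KO-labelled injured it was at 179 (156 to 204) and 43.1 (39.6 to 46.9) CPM, a ratio of 4.14 (3.53 to 4.85). It was spread over the members, with a UMI in 56.7% and 48.6% of them against 20.7% and 20.6% of Ifi27l2a-low cells. Thinned to 3000 UMIs the shares were 32.2% and 28.6% against 9.13% and 9.25%. Endothelial cells, which have interferon responses of their own, held Irf7 in 50% and 59.0% of cells, and in 32.1% and 43.3% when thinned. They held Ifitm3 in 96.1% and 95.1% of cells, against 91.3% and 90.8% of members. Ly6a was in 98.7% and 100% of endothelial cells, against 38.0% and 37.3% of members. These genes are therefore not particular to microglia here.

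Ifitm3, a membrane protein that blocks viral entry, was at 1061 against 259 CPM in WT injured and 977 against 266 CPM in KO-labelled injured, ratios of 4.09 (3.82 to 4.38) and 3.67 (3.44 to 3.92). Bst2, or tetherin, which holds budding virus at the cell surface, was at 948 against 391.8 and 999 against 435 CPM, ratios of 2.42 (2.27 to 2.58) and 2.30 (2.16 to 2.44). The members of both injured libraries lay close together for these genes. The nucleic acid sensor Zbp1 was at 82.7 against 20.7 and 62.4 against 17.9 CPM, and Oasl2, of the oligoadenylate synthetase family, at 79.8 against 23.9 and 86.5 against 30.4 CPM. Sham Ifi27l2a-low microglia had 3.29 and 2.22 CPM of Irf7, 29.6 and 13.8 CPM of Ifitm3, and 124 and 134.6 CPM of Bst2. Without their top 5 members, Irf7 kept ratios of 3.56 (2.96 to 4.26) and 3.14 (2.62 to 3.75), and Ifitm3 of 3.54 (3.29 to 3.80) and 3.14 (2.92 to 3.37). Irf7, Ifitm3 and Bst2 had the same order of levels: sham lowest, then injured Ifi27l2a-low cells, then members.

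Further interferon genes called higher in both libraries were the ISG15 protease Usp18 (42.1 against 14.4 and 39.2 against 18.2 CPM) and the RNA sensor Dhx58 (38.4 against 18.4 and 48.8 against 20.4 CPM). Oas1a, Slfn5, Xaf1, Phf11b and Rtp4 were among the others. Several of these genes have close copies (the Oas1, Phf11, Slfn and H2-Q families), and whether reads were split between copies was not tested.

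Not all steps of the interferon pathway moved with its targets. Of 10 measured genes for interferon ligands, receptors and kinases none was called in both libraries, and 6 lay below 0 in both. The receptor subunit Ifngr1 was at 334 against 397 CPM in WT injured and 379 against 456 CPM in KO-labelled injured. The feedback inhibitor Socs1 was at 9.60 against 22.4 and 16.8 against 28.8 CPM, with log2 ratios of -0.72 and -0.53. The relative Ifi27, which neighbours Ifi27l2a on chromosome 12, had the opposite sign to it, at 53.2 against 83.9 and 55.2 against 92.9 CPM (log2 ratios of -0.57 and -0.66). In cells without any of the 6 Ifit genes of the rule the sign in WT injured was lost, at 0.054.

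**Figure D2:**
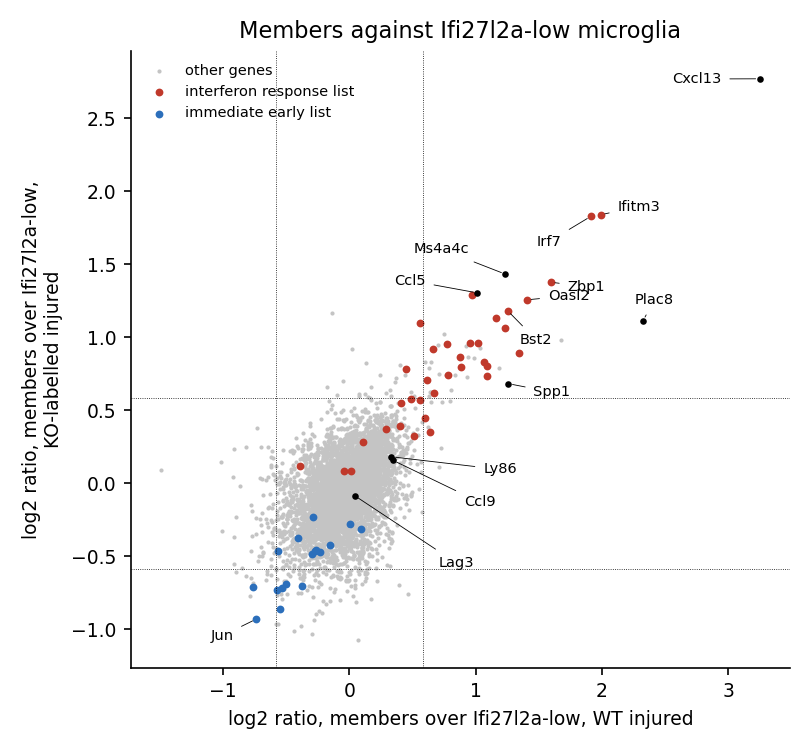
Each point is 1 of 5270 genes outside the rule, with the log2 ratio of members over Ifi27l2a-low microglia in WT injured (x axis) and KO-labelled injured (y axis); dotted lines mark 1.5-fold. Interferon response genes (red) lie to the upper right, immediate early genes (blue) to the lower left, and the given markers Lag3, Ccl9 and Ly86 inside the dotted lines.

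Promoters of the leading interferon genes are shown because many genes called higher held the core of the interferon-stimulated response element. The motif searched was GAAANNGAAA on either strand, over 250 bases before to 50 after the start (RefSeq, GRCm38.p6). Overlapping matches were allowed and both count as 1 gene. It was found in 13 of 34 genes higher in both libraries that have an entry (38.2%), in 177 of 4241 genes tested (4.17%), and in 0 of the 8 lower genes with an entry. It was in 1131 of all 32851 promoter sequences (3.44%). The table has no entry for Ifi27l2a or Lag3. Capitals mark the motif, Irf7 is shown as a leading gene without it, and a match of letters is not evidence of binding.
Ifitm3, chr7:141010695-141010994, minus strand: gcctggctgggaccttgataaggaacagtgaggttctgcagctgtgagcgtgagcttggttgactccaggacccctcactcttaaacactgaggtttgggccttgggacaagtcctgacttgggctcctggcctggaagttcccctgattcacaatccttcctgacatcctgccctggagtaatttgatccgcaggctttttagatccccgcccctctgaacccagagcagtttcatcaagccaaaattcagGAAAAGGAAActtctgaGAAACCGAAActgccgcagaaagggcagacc
Bst2, chr8:71537423-71537722, minus strand: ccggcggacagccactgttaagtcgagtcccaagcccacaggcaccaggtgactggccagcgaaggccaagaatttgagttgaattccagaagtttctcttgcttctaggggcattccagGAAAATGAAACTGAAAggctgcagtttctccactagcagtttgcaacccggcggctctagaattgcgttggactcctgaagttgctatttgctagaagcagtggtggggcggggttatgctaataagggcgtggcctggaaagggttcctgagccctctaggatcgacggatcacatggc
Oas1a, chr5:120907476-120907775, minus strand: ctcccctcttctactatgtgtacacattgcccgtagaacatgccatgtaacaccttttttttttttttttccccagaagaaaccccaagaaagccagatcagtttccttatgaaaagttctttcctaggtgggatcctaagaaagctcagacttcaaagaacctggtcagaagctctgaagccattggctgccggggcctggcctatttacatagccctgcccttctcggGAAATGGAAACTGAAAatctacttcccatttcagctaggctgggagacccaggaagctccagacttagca
Irf7, chr7:141266375-141266674, minus strand: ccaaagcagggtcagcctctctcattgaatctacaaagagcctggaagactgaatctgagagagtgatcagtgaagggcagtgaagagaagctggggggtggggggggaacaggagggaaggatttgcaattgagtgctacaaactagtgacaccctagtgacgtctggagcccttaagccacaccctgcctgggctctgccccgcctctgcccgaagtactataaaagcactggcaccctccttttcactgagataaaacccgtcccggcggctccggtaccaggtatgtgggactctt

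In Bst2 and Oas1a 2 overlapping matches form a run of 3 GAAA repeats, and in Ifitm3 2 separate matches lie just downstream of the annotated start.

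Absence of an Ifit program by the rule did not mean absence of Ifit genes. The rule allows up to 3 of the 6 genes, and at least 1 was detected in 119 of 150 WT injured members (79.3%) and 106 of 142 KO-labelled injured members (74.6%). In Ifi27l2a-low cells the shares were 53.5% in each library. Cells were not thinned to a common depth for these shares. Isg15, a ubiquitin-like modifier among the 6, was at 165 against 53.7 and 151 against 56.9 CPM. Cxcl10, a T cell attracting chemokine among the 6, went the other way at 335 against 363 and 154 against 243 CPM. Because the 6 genes are part of the rule, these values describe the cells it kept.

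The higher interferon genes were also seen in members without any of the 6 genes. The 31 WT injured members with none of them had Ifitm3 at 692 CPM against 171 CPM in the 472 Ifi27l2a-low cells with none, a ratio of 4.04 (3.38 to 4.82). The 36 KO-labelled injured members had 638 against 142 CPM in 678 cells, a ratio of 4.50 (3.76 to 5.36). Summed over the 45 interferon genes of the list outside the rule, the ratios in these cells were 1.804 (1.68 to 1.93) and 1.90 (1.78 to 2.03). With 3 of the 6 genes detected in both classes they were 1.56 (1.49 to 1.64) and 1.43 (1.36 to 1.504). Members were thus higher at each matched count. With none detected, 4 interferon genes passed the 1.5-fold call in both libraries, against 21 for all members. The same floors were applied to these smaller classes, with 4177 and 5425 genes tested against 5434 and 5570. The count of calls is therefore not a measure of how much of the difference remained.

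Per cell, the summed interferon list had a median of 53.0 UMIs per 10000 in WT injured members and 52.3 in KO-labelled injured members. Ifi27l2a-low cells had a median of 23.8 in each library. The spread was wide, from 27.5 at the 10th percentile to 93.8 at the 90th in WT injured members and from 24.5 to 108 in KO-labelled injured members. Of the members, 94.0% and 90.1% lay above the Ifi27l2a-low median, so the classes overlapped while most members sat in the upper part.

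**Figure D3:**
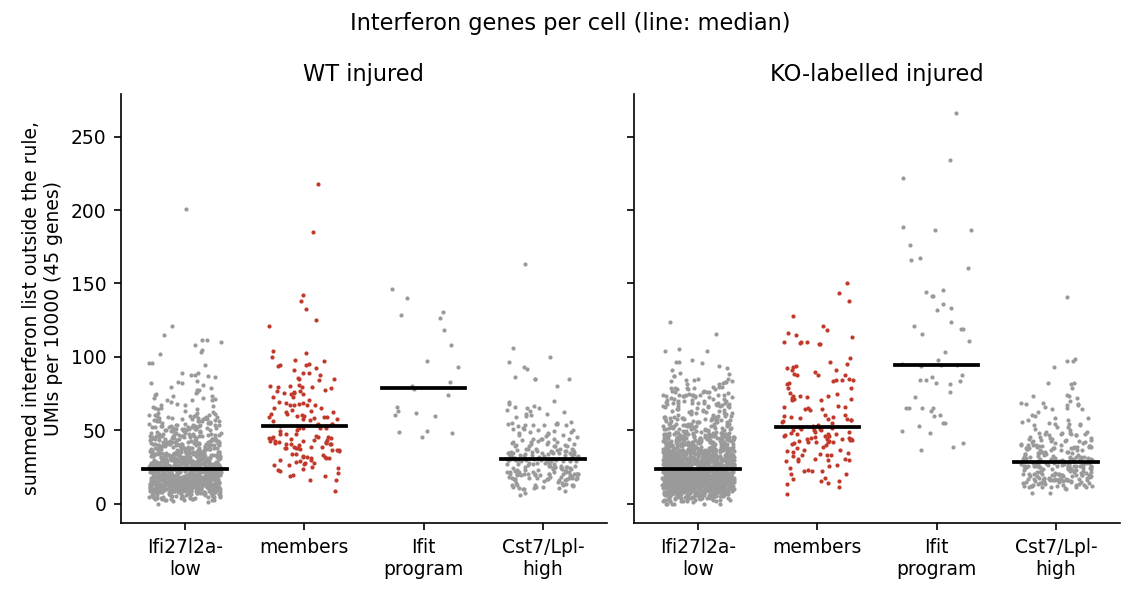
Summed UMIs per 10000 of 45 interferon response genes outside the rule (y axis) in each cell of 4 microglial classes (x axis), for each injured library; black lines are medians. Members (red) lie between Ifi27l2a-low cells (medians of 23.8) and cells with the Ifit program (79.0 and 94.7).

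Across bins of Ifi27l2a, Irf7 and Ifitm3 were higher in each bin than in the one before, also below the threshold. In WT injured, Irf7 was at 16.8 CPM where Ifi27l2a was 0, 42.7 CPM above 0 to 5 per 10000, 75.3 CPM at 5 to 10, 169 CPM at 10 to 20 and 211 CPM at 20 to 40. In KO-labelled injured the same bins had 23.1, 42.3, 79.0, 154 and 272 CPM. The bins of 40 or more per 10000 held 9 and 4 cells, with intervals that covered the neighbouring values. These genes were thus higher already in bins below the threshold, with a further difference across it. Lag3 did not follow, from 218 CPM at 0 to 190 CPM at 20 to 40 in WT injured. In KO-labelled injured it went from 315 to 250 CPM. Ly86 was higher in each bin than in the one before in both libraries. Its levels at 0 and at 20 to 40 were 1975 and 2893 CPM in WT injured, and 2231 and 2776 CPM in KO-labelled injured. Ccl9 was at 194 and 272 CPM in these bins of WT injured. In KO-labelled injured it was at 346 and 369 CPM, without a steady rise.

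**Figure D4:**
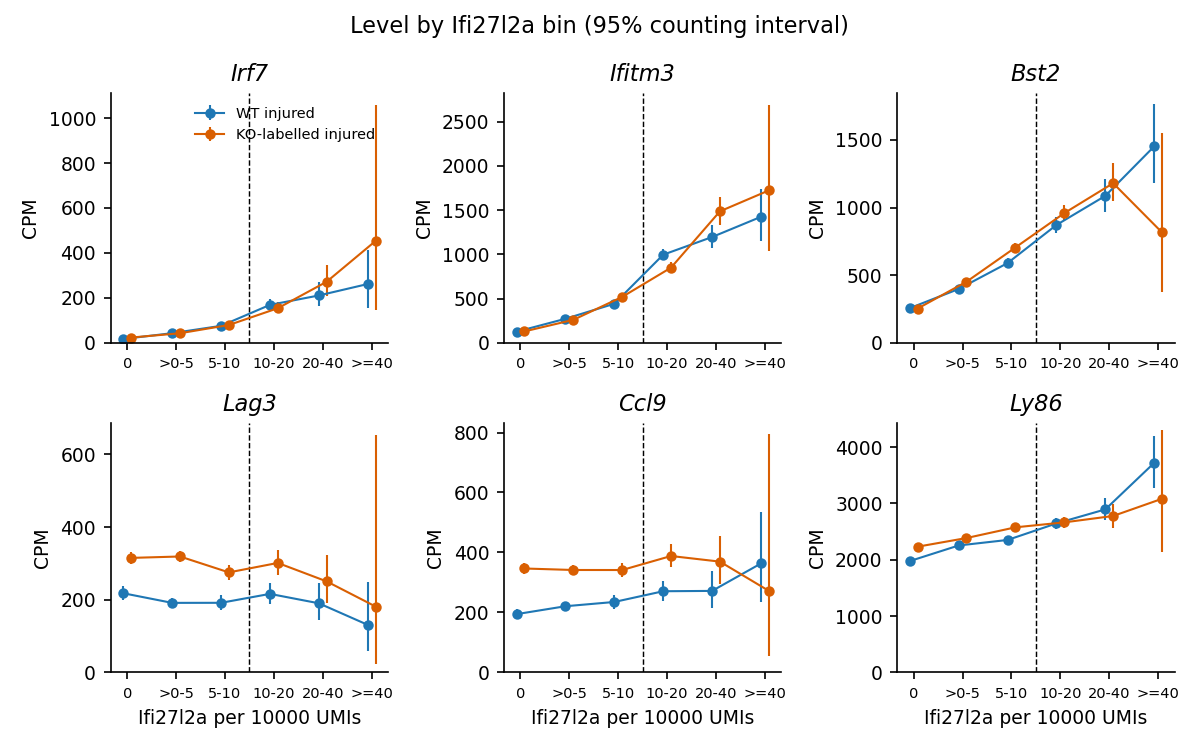
Level in CPM with its 95% counting interval (y axis) in bins of Ifi27l2a per 10000 UMIs (x axis), for WT injured and KO-labelled injured; the dashed line is the rule's threshold of 10. Irf7, Ifitm3 and Bst2 are higher bin by bin on both sides of it, apart from Bst2 in the top KO-labelled bin of 4 cells. Ly86 is higher bin by bin in both libraries, Ccl9 in WT injured only, and Lag3 has no steady rise across the bins.

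Of 17 genes of MHC class I and peptide loading measured in both libraries, 4 were called higher in both, none lower, and 16 lay above 0 in both, with medians of 0.52 and 0.40 on the log2 scale. The called genes were H2-Q7 (214 against 124 and 265 against 125 CPM), H2-T23 (247 against 154 and 379 against 209 CPM), H2-T22 and the proteasome activator subunit Psme2. Tap2 was the exception at log2 ratios of -0.10 and -0.08.

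MHC class II differed between the libraries in sign. Its 8 genes had a median log2 ratio of -0.55 with 4 called lower in WT injured, and of 0.12 with none called in KO-labelled injured. H2-Aa came from few cells, and only 3 members of each library had a UMI of it. In WT injured members 76 of its 78 UMIs came from 1 cell, and without that cell the ratio was 0.0117 (0.00141 to 0.0423). In KO-labelled injured members 5 cells held 156 of 180 UMIs of H2-Ab1. Without the top 5 members the KO-labelled ratios were 0 (0 to 0.0309) for H2-Aa and 0.166 (0.106 to 0.248) for H2-Ab1. Top cells were left out of the members only, which lowers a ratio by construction.

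Among chemokines and cytokines, Ccl12, which attracts monocytes, was called higher in both libraries at 535 against 338 and 540 against 347 CPM. Its ratios without the top 5 members were 1.32 (1.20 to 1.44) and 1.23 (1.12 to 1.35), under 1.5-fold. The interleukin 1 receptor antagonist Il1rn was also called, at 33.2 against 14.8 and 23.2 against 11.3 CPM, from 19 and 13 members with a UMI. Without its top 5 members the ratios were 1.01 (0.588 to 1.65) and 0.610 (0.258 to 1.23). Ccl3 and Ccl4 were not called. Ccl5 was at 117 against 53.1 and 115 against 40.8 CPM, but 5 members held 76.7% and 70.1% of its UMIs. Without these 5 the Ccl5 ratios were 0.529 (0.368 to 0.742) and 0.882 (0.631 to 1.20). The Ifi27l2a-low cells kept their own top cells, so these ratios cannot show whether the direction of Ccl5 rested on the 5 members.

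Cxcl13, a B cell attracting chemokine, had the highest ratio of all genes but belonged to single cells. In WT injured members 126 of its 158 UMIs came from 1 cell, and without that cell the ratio was 7.23 (4.19 to 12.5), from 11 members with a UMI before its removal. In KO-labelled injured members 153 of 155 UMIs came from 1 cell, and without it the ratio was 0.168 (0.0201 to 0.618). In WT injured the ratio without the top 5 members was 1.40 (0.472 to 3.45), so the level rested on 5 cells there and on 1 cell in KO-labelled injured. Values without top cells leave them out of the members only, which lowers the ratio by construction. Spp1, or osteopontin, was similar in WT injured, where 1 member held 2488 of 3086 UMIs. Without that cell Spp1 was 448 CPM, lower than in Ifi27l2a-low cells at a ratio of 0.474 (0.435 to 0.515).

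Plac8 and Ms4a4c, found in monocytes and also known as interferon-responsive, were called higher in both libraries. Plac8 was at 81.2 against 8.20 and 24.0 against 5.73 CPM, with 73 of its 110 WT injured UMIs in 1 cell. Without its top 5 members the Plac8 ratios were 1.40 (0.742 to 2.48) in WT injured and 2.04 (1.06 to 3.65) in KO-labelled injured. The remaining 9 monocyte markers outside the rule summed to 79.0 against 71.1 CPM in WT injured and 36.8 against 31.7 CPM in KO-labelled injured, with 4 and 3 of the 9 higher in members. Ccr2 was at 5.17 against 3.55 and 7.21 against 5.11 CPM, and Ly6c2 at 8.86 against 0.245 CPM in WT injured and at 0 against 0.707 in KO-labelled injured. Chil3 and Vcan were at 0 in members of both libraries. The part of monocyte-derived cells in these values was not tested.

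Members carried the microglial markers at the level of Ifi27l2a-low cells. The 6 markers outside the rule summed to 16839 against 16698 CPM in WT injured and 17775 against 19124 CPM in KO-labelled injured. T cell and NK cell markers were near 0, with 9 and 10 of 10 at 0, and all 5 erythrocyte markers were at 0. The 10 markers of border-associated macrophages summed to 160 against 155 CPM in WT injured but 197 against 84.0 CPM in KO-labelled injured, with Mrc1 at 44.8 against 19.4 CPM there and all 9 markers other than Folr2 above the Ifi27l2a-low level. The part of such cells in the KO-labelled values was not tested.

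Homeostatic microglial genes tended to be lower without passing the call. Of 17 measured, none was called in both libraries and 14 lay below 0 in both, with medians of -0.18 and -0.28. The TGF-β receptor Tgfbr1 was at 301 against 413 and 347 against 487 CPM, and the purinergic receptor P2ry13 at 149 against 197 and 179 against 230 CPM. Genes of oxidative phosphorylation lay above 0 in both libraries in 23 of 24 cases, with medians of 0.24 and 0.26 and none called. Genes of the IL-6 and STAT3 list had no call in both libraries among 8, with medians of -0.15 and -0.22. Il6ra, the receptor that binds IL-6, was at 98.2 against 151 CPM in WT injured and 147 against 173 CPM in KO-labelled injured.

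Immediate early genes are those that cells switch on within minutes of a stimulus. All 17 genes of the list were measured in both libraries, with medians of -0.38 and -0.47, and 15 lay below 0 in both. In WT injured 2 were called lower and in KO-labelled injured 7, with Jun and Atf3 shared. The transcription factor Jun was at 1548 against 2590 CPM and 1516 against 2899 CPM, 1.67-fold (1.60 to 1.75) and 1.91-fold (1.83 to 2.00) lower in members. Atf3, a stress-induced factor, was at 621 against 1062 and 589 against 970 CPM. Summed over the list, 25.3% and 20.4% of members lay above the Ifi27l2a-low median. These shares were 30.9% and 28.5% in microglia high in Cst7 and Lpl, and 27.3% and 28.3% in those with the Ifit program. Lower levels were therefore not particular to members. Median log2 ratios of members were -0.005 and -0.14 against the Cst7 and Lpl class, and 0.13 and -0.18 against the Ifit class. Against these classes no gene of the list was called in both libraries.

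Jun was also lower across bins of Ifi27l2a, from 3155 CPM at 0 to 1593 CPM at 10 to 20 per 10000 in WT injured, and from 3472 to 1493 CPM in KO-labelled injured. These genes are known to respond to tissue dissociation, which all libraries went through, and its part in the difference was not tested. Among the other genes called lower were Klf4, Maml3, Tuba1a, Rapgef5, Khdrbs3, Klhl18, Gm43936 and 2810013P06Rik.

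**Figure D5:**
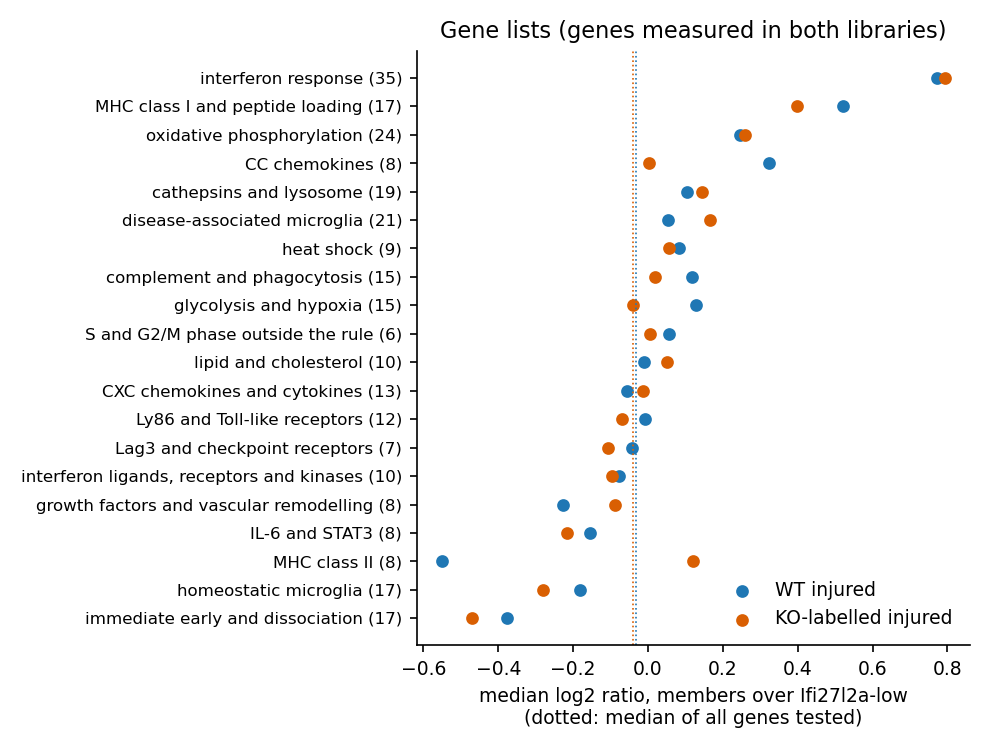
Median log2 ratio of members over Ifi27l2a-low microglia (x axis) for each gene list (y axis, with the number of genes measured in both libraries), as 1 point per injured library; dotted lines are the medians of all genes. Interferon response (0.77 and 0.79) is at the top and immediate early genes (-0.38 and -0.47) at the bottom; MHC class II is split between the libraries.

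Microglia with the Ifit program, which met the same rule but had 4 or more of the 6 Ifit genes, were 22 cells in WT injured and 53 in KO-labelled injured. Their Ifi27l2a had medians of 16.5 and 13.8 per 10000, close to the 15.2 and 14.4 of members. In both libraries 3 of 1984 genes (0.151%) were higher in members and 16 (0.806%) lower. In WT injured alone 120 of 2014 (5.96%) were higher and 67 (3.33%) lower, and in KO-labelled injured 41 of 2390 (1.72%) higher and 77 (3.22%) lower. Another 7 genes were called in opposite directions by the libraries. Among interferon genes, 11 of 22 measured were called lower in WT injured members and 24 of 31 in KO-labelled injured members. Since the Ifit genes cut these classes, this again describes the rule.

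The interferon genes differed in how far they were lower than in cells with the Ifit program. Parp14, an ADP-ribosyltransferase, was at 70.2 against 183 and 88.9 against 280 CPM, 2.61-fold (1.76 to 3.80) and 3.15-fold (2.46 to 4.03) lower in members. Slfn5 was 2.83-fold (2.08 to 3.81) and 2.47-fold (2.01 to 3.02) lower, and Samhd1, a nucleotide hydrolase that restricts viruses, 2.42-fold (1.57 to 3.63) and 2.58-fold (1.92 to 3.48). Bst2 was 1.08-fold (0.937 to 1.25) and 1.29-fold (1.18 to 1.41) lower, and Ifitm3 1.27-fold (1.12 to 1.44) and 1.41-fold (1.29 to 1.54). Levels of Ifitm3 and Bst2 in members were thus nearer to those of Ifit-program cells than levels of Parp14, Slfn5 and Samhd1 were.

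Microglia high in Cst7 and Lpl, genes of the disease-associated state, numbered 236 in WT injured and 284 in KO-labelled injured. In both libraries 75 of 4540 genes (1.65%) were higher in members and 122 (2.69%) lower. In WT injured alone 165 of 4593 (3.59%) were higher and 180 (3.92%) lower, and in KO-labelled injured 191 of 5138 (3.72%) higher and 275 (5.35%) lower, with 1 gene called in opposite directions. The disease-associated list was lower in members for 15 and 16 of 22 genes, 14 of them in both. Igf1, a growth factor, was at 56.1 against 283 and 29.6 against 204 CPM, 5.04-fold (3.98 to 6.46) and 6.87-fold (4.94 to 9.84) lower. Ch25h, which makes 25-hydroxycholesterol, was 6.93-fold (4.79 to 10.4) and 9.03-fold (5.58 to 15.6) lower. Cst7 and Lpl chose the classes and are not counted.

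Higher in members than in these cells were Ly6a (109 against 11.0 and 88.9 against 8.70 CPM), the crystallin gene Crybb1 (389 against 105 and 369 against 79.9 CPM) and Lst1 (165 against 50.4 and 163 against 47.2 CPM). Crybb1 and Lst1 differed less from Ifi27l2a-low cells. In WT injured, without the top member, those ratios were 1.27 (1.15 to 1.40) and 1.18 (1.02 to 1.37), against 3.63 (2.91 to 4.52) for Ly6a. Compared with the Cst7 and Lpl cells, 18 of 32 interferon genes in WT injured and 20 of 31 in KO-labelled injured were higher. The list had median log2 ratios of 0.67 and 0.77. That class was not matched on Ifi27l2a, so these values do not separate the Ifi27l2a level from the Cst7 and Lpl state. The Cst7 and Lpl class was deeper, with medians of 12915 and 13104 UMIs.

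Between the genotype labels, members of the KO-labelled injured mouse had 2 of 3211 genes higher (0.0623%) and 12 lower (0.374%) than members of the WT injured mouse at 2-fold. In Ifi27l2a-low cells 3 of 5469 genes were higher (0.0549%) and 20 lower (0.366%). Of 10 measured genes on the lipid and cholesterol list, 5 were called lower in KO-labelled members and none higher, with a median log2 ratio of -0.95 against 0.03 for all genes. These were Apoe (9501 against 24398 CPM, a ratio of 0.389 with an interval of 0.381 to 0.398), Apoc1 (22.4 against 120 CPM), Apoc2 (15.2 against 60.6 CPM), the lipid droplet protein Plin2 (56.8 against 134 CPM) and Fabp5 (47.2 against 112 CPM). The Ifi27l2a-low cells had log2 ratios of -1.68 for Apoe, -1.92 for Apoc1, -1.84 for Apoc2 and -1.40 for Plin2, so the Ifi27l2a-low cells had the same sign. Apoc1 came from few cells, with 5 KO-labelled members having a UMI and 63.8% of the WT UMIs in 5 members.

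Of the 13 genes called in members that were also measured in Ifi27l2a-low cells, 11 had the same sign there and 8 were called there too. The 2 genes called higher, Cd74 and H2-Eb1 of MHC class II, were at 260 against 115 and 88.1 against 29.5 CPM. They came from few cells, with 131 of 325 Cd74 UMIs in 1 KO-labelled member and H2-Eb1 in 3 members. Spp1 was at 159 against 2279 CPM, and WT injured members had 448 CPM without the single cell named above. Between the labels, members had ratios of 0.979 (0.813 to 1.18) for Irf7, 0.921 (0.853 to 0.995) for Ifitm3 and 1.05 (0.9747 to 1.14) for Bst2. With 1 mouse per label, mouse and genotype cannot be told apart.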

How the data were processed

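Values are the UMI counts the authors deposited for each gene in each barcode, without normalization. The submitters' processing notes name Cell Ranger 6.0.1 and the mm10 build. Libraries used 10x 3′ v3 chemistry, per the labels. Cells passing the filters totalled 8018, with 10264446 to 37794675 UMIs per library, so that depth limits precision mainly in classes of few cells. The members, classes and gene lists were chosen with earlier results of these data known, and they support nothing independently.

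CPM came from the summed counts of all cells of a class in a library. Intervals are exact Poisson for CPM, exact conditional binomial for ratios and Clopper-Pearson for shares, at 95%. The 21 genes of the rule were left out of all counts of genes. Genes were called at 1.5-fold between classes and 2-fold between labels, with 10 CPM added, 20 CPM in 1 class and 100 UMIs over both. Named genes were the rule genes and given markers, the 14 highest and 14 lowest against Ifi27l2a-low cells by the smaller ratio of both injured libraries, up to 3 per list, and 8 on each side of each other comparison. Other genes in the text were added to these for their role in a pathway, after their values were seen.

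Endothelial cells had at least 3 of Cldn5, Flt1, Pecam1 and Cdh5 and fewer than 2 microglia genes. Doublets were kept; as an alternative Scrublet in scanpy 1.11.5 left out 0.8% per 1000 cells. Analyses ran in Python 3.11.15 with numpy 2.4.6, scipy 1.17.1 and pandas 2.3.3, and the ratio and call functions were tested on simulated data. No p-values are given, since each group is 1 mouse. Some genes that met the rule for named genes are not reported here.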

Additional observations from a re-analysis of the deposited data

How the results depend on the processing

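No paired analysis was possible because each group is 1 mouse and the labels share no replicate numbers. For the same reason no replicate could be left out in turn. Leaving out each gene's top cell, using only cells without any Ifit gene, and removing shared barcodes were alternatives chosen after seeing the data. Over 36 named values in 10 alternatives, 257 of 356 recomputed values stayed within the counting interval of the value reported, 89 moved outside it and 10 reversed. Reversed means that a value past its call threshold changed sign. Values short of the threshold also changed sign: with no Ifit gene, Ccl9 was at -0.059 and -0.16, Lag3 at -0.30 and 0.15 and, in WT injured, Ifi27 at 0.054. Lag3 in WT injured was at -0.15 with Ifi27l2a at 20 or more per 10000 and at -0.029 with cells weighted equally. Genes tested against Ifi27l2a-low cells numbered 5434 in WT injured and 5570 in KO-labelled injured for the values reported. They numbered 5536 and 5874 with Ifi27l2a at 20 or more per 10000, and 5529 and 5651 with fewer than 2 Ifit genes. They numbered 4177 and 5425 with no Ifit gene, 5296 and 5427 without top cells, and 5564 and 5593 with equal weights. With no CPM floor they numbered 10461 and 11173, so bare counts of calls do not compare between settings.

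With Ifi27l2a at 20 or more per 10000, the share of cells was 0% in WT sham, 1.40% in WT injured and 1.18% in KO-labelled injured, and of microglia 0%, 1.88% and 1.39%. Against Ifi27l2a-low cells 207 genes were higher and 527 lower in WT injured, 384 and 918 in KO-labelled injured, and 156 lower in both. Against Ifit-program cells 0 were higher and 1 lower, and 0 were higher between labels. Log2 ratios reversed for Ccl5 in WT injured (-0.65), Cxcl13 in KO-labelled injured (-0.12), Spp1 in WT injured (-0.72) and KO-labelled injured (-0.42), and H2-Eb1 between labels (-0.35). These cells are few, and the count of calls rises with counting noise by construction.

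With fewer than 2 Ifit genes, shares of cells were 2.57% and 2.96% and of microglia 3.45% and 3.49% in WT and KO-labelled injured. Genes lower than in Ifi27l2a-low cells numbered 276, 317 and, in both, 52. Against Ifit-program cells 1 was higher and 7 lower, between labels 1 and 7. Cxcl13 in KO-labelled injured reversed to -0.71 and Cd74 between labels to -0.022. With no Ifit gene, 193 genes were higher and 468 lower in WT injured, 172 and 869 in KO-labelled injured, 19 and 134 in both, with 4 of the interferon list higher and Cxcl13 in KO-labelled injured at -1.10.

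Without each gene's top cell, 141 genes were lower in WT injured, 48 higher and 225 lower in KO-labelled injured, 30 lower in both, and 9 higher and 7 lower against Ifit-program cells. Cxcl13 in KO-labelled injured reversed to -0.42 and Spp1 in WT injured to -0.85. This setting takes a larger part from the smaller class. With cells weighted equally, 168, 282 and 44 genes were lower in WT injured, KO-labelled injured and both, and 4 were higher between labels.

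With a prior of 1 CPM, 98 genes were higher and 215 lower in WT injured, 125 and 287 in KO-labelled injured, and 36 lower in both. There were 6 higher against Ifit-program cells, 117 higher in both against Cst7 and Lpl cells, and 4 higher between labels. With no CPM floor and at least 20 UMIs, 144 and 226 genes were lower in WT and KO-labelled injured, 39 higher and 42 lower against Ifit-program cells, and 10 higher and 32 lower between labels. With cells of at least 5000 UMIs, 10 genes were lower than in Ifit-program cells. Where not stated, the cause of a shift was not tested.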
